A study of Mus musculus with 15 samples.

Results

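The genes described here make cholesterol and fatty acids, and they were taken by symbol from a list of 33 genes, 22 for the sterol branch and 11 for the fatty acid branch. Of these, 32 were among the 11201 genes of the deposited table, all 22 of the sterol branch and 10 of the fatty acid branch, and Fads2 was not analysed here. The members were chosen by name and function, with no measured value in the rule, but with earlier results of these data known. The messenger RNA was sequenced in microglia derived from mouse embryonic stem cells, called ESdM, which were made from C57BL/6-ATCC stem cells and grown in N2 medium. They are a cultured model of the resident immune cells of the brain. Of the 15 libraries, 6 came from untreated cells. The other groups had 3 libraries each and were stimulated for 24 h with LPS+IFNg (lipopolysaccharide, a bacterial cell wall component, at 500 ng/ml with interferon gamma at 20 ng/ml), with IL4 (interleukin 4, 100 U/ml) or with TGFb (transforming growth factor beta, 50 ng/ml). The labels give this as a polarization of the cells into different activation states.

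Cholesterol is built from acetyl-CoA through mevalonate, isoprenoid diphosphates, squalene and lanosterol, and a chain of late enzymes turns lanosterol into cholesterol. Fatty acids start from the same acetyl-CoA, which Acly makes from citrate and Acss2 from acetate, and are then extended, elongated and desaturated. Genes of both branches are known targets of the sterol regulatory element-binding proteins, SREBPs, encoded by Srebf1 and Srebf2. Scap carries these proteins out of the endoplasmic reticulum when sterols are low, Insig1 holds them back when sterols are high, and macrophages are known to change this pathway when they meet bacterial products or interferons.

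The reads recovered from the table summed to 2682564 to 18676181 per library, with a median of 7589049. Replicate 3 of LPS+IFNg stood apart from replicates 1 and 2: the chi-square of its reads per degree of freedom was 25.95 and 26.54 against them, where that pair gave 2.881. Calls of members that changed without this library are given with and without it. Microglia genes of the marker list were abundant in part: the untreated mean was 2790.5 for Csf1r, 2900.0 for Tyrobp and 7854 for Cd68, while Tmem119 was at 7.62 and Cx3cr1 at 2.60, near the floor of 1. Their summed level was 22728 to 24308 in untreated libraries, 24013 to 26352 with LPS+IFNg, 28315 to 28902 with IL4 and 31826 to 33463 with TGFb. Of the markers of other cell types, 0 of 7 fibroblast genes and 0 of 8 stem cell genes were in the table used here. The single neuronal gene in it, Syn1, was at 197 untreated and 53.8 with LPS+IFNg, and the single endothelial gene, Pecam1, at 1.34 and 11.1. Of 7 astrocyte genes 2 were present, Slc1a2 and Aldh1l1, with a summed level of 39.6 to 80.9 in untreated libraries, 100.0 to 111 with LPS+IFNg, 72.7 to 109 with IL4 and 65.7 to 85.4 with TGFb, and Aldh1l1 was at 31.3 untreated and 65.5 with LPS+IFNg. Of 8 oligodendrocyte genes 3 were present, with sums of 166 to 239 untreated, 182 to 201 with LPS+IFNg, 190.04 to 206 with IL4 and 204 to 224 with TGFb. The part of these shifts in the results below was not tested. In such bulk libraries fewer cells of a type and less RNA per cell cannot be told apart. Nothing in the labels says that libraries came from separate cultures, so the spread behind each p-value is that between libraries and could be purely technical.

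All levels below are normalized reads, as the authors scaled them. The first values given are per kilobase of the longest GENCODE M21 transcript, since values without a length do not compare genes. That transcript was taken whatever its type and may not be the one expressed, so ranks between genes depend on this choice. In untreated cells the highest member on this length-adjusted scale was Fasn (chromosome 11, 120805846 to 120824547 of GRCm38), the fatty acid synthase, at 988 ± 26.6 (SD, n = 6). Fads1 (chromosome 19, 10182888 to 10196877), a desaturase of polyunsaturated fatty acids, followed at 957 ± 30.0, and the spreads of these top members overlapped. The highest sterol gene was Fdps (chromosome 3, 89093588 to 89101959), which makes the isoprenoid farnesyl diphosphate, at 829 ± 32.4. Next came Acly (chromosome 11, 100476353 to 100528000), the citrate lyase, at 653 ± 18.9, Elovl1, a very-long-chain elongase, at 577 ± 27.4 and Srebf2 at 559 ± 25.3. Elovl1 and Srebf2 did not differ beyond their spread. At the low end stood Elovl6, the elongase of palmitate, at 29.9 ± 2.23, and the sterol reductase gene Tm7sf2 at 10.1 ± 1.38.

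Scd1, a stearoyl-CoA desaturase, was near the floor. Its deposited values were 2.16 to 5.66 in untreated libraries, 1.00, 1.00 and 1.13 with LPS+IFNg, 4.18, 8.47 and 2.69 with IL4 and 5.81, 4.27 and 26.7 with TGFb. It was the only member that did not reach 10 in 3 or more libraries, the minimum for testing, so 31 members were tested. The paralog Scd2, no member, was the abundant desaturase, with an untreated mean of 42156 ± 1921. How reads shared by near-identical copies, such as the Scd genes or Acat2 and its neighbouring copy, were counted is not given in the sources used here, and their levels are uncertain to that extent.

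**Figure D1:**
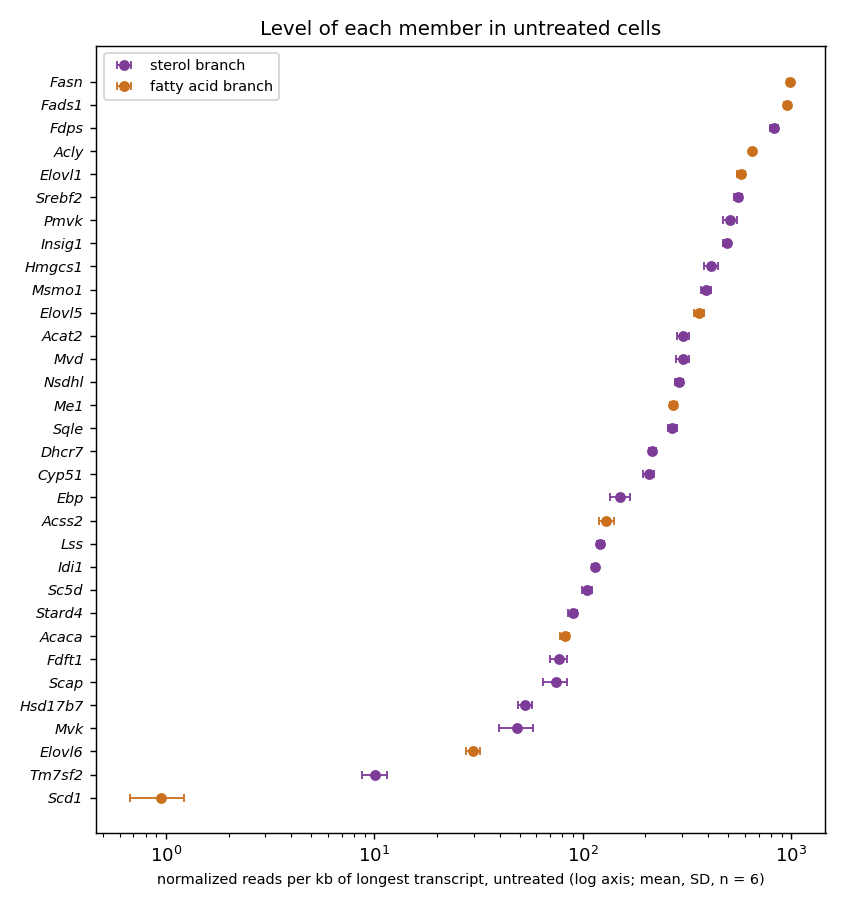
Level of each of the 32 members in untreated cells, as normalized reads per kilobase of the longest transcript on a log axis (points are means, bars SD, n = 6 libraries; colours mark the branch). Members span from Scd1 at 0.950 to Fasn at 988, and both branches have members at the top and at the low end.

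The sequence in front of these genes was searched because members of the pathway are known to share SREBP sites there. RefSeq promoters of GRCm38.p6 were matched for 26 of the 32 members, with 32 promoters in all, and the 250 bases before the start were used. Fdps, Fdft1, Sqle, Stard4, Fads1 and Scd1 had no matched promoter and were not searched. The 22 sterol promoters belong to 18 genes and the 10 fatty acid promoters to 8. The sterol regulatory element was searched as TCACNCCAC on both strands. Among the members searched, an exact match was found for Hmgcs1 alone. It was in 1 of 22 sterol promoters and 0 of 10 fatty acid promoters, where 1.05% of all 32851 promoters held one. With up to 1 mismatch, a wider search made after results were seen, 9 of 22 sterol promoters and 1 of 10 fatty acid promoters held a match, against 20.7% of all. The CCAAT box, bound by the factor NF-Y, was in 16 of 22 sterol and 5 of 10 fatty acid promoters and in 33.9% of all. The GC box GGGCGG, bound by SP1-type factors, was in 18 of 22 and 5 of 10 and in 32.7% of all. These are matches of letters, not shown sites. The windows that follow, chosen after results were seen, show the exact match, some of the near matches and, for contrast, the window of the abundant fatty acid member. None overlaps an exon of GENCODE M21. Each is written 5′ to 3′ on the strand of the gene, and capitals mark the sterol element with up to 1 mismatch and the CCAAT box, on either strand.
Hmgcs1, chr13:119690151-119690310, plus strand: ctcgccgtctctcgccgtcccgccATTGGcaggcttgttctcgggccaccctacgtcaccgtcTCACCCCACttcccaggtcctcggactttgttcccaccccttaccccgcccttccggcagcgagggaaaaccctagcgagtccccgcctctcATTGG
Srebf2, chr15:82147089-82147168, plus strand: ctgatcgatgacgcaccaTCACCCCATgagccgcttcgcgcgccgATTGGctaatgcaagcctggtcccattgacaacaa
Acat2, chr17:12960766-12960925, minus strand: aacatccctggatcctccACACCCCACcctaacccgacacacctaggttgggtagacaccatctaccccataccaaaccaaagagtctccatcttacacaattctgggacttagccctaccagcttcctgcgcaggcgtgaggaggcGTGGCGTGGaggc
Cyp51, chr5:4104747-4104817, minus strand: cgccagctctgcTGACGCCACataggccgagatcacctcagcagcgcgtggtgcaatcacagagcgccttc
Hsd17b7, chr1:169969266-169969335, minus strand: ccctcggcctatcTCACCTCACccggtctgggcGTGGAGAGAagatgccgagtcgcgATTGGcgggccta
Fasn, chr11:120824588-120824667, minus strand: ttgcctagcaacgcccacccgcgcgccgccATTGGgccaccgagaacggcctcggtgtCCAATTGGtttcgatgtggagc
In Hmgcs1 the exact element lies between a pair of reversed CCAAT boxes, at bases 137 to 129 before the start. In the Fasn window the capitals are CCAAT boxes only, and 2 of them overlap in the run CCAATTGG. Acat2 shows 2 near matches and no CCAAT box.

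With LPS+IFNg, most of the sterol chain was lower than in untreated cells. Of the 22 sterol members, 13 fell, 2 rose and 7 did not pass the threshold, and the branch's median log2 fold change was -0.34. Over all 11138 genes tested, 29.4% were called lower, 29.5% higher and 58.9% in either direction, with a median of 0.00388. The share of sterol members called in either direction, 68.2%, was near that of all genes, and 13 of its 15 calls were lower. A call is an adjusted p below 0.05 from limma with Benjamini-Hochberg adjustment, and fold changes were computed from log2(value + 1).

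Sqle (chromosome 15, 59315077 to 59331192) encodes squalene epoxidase, the first oxygen-using step. It was at 1135 to 1292 with a median of 1188 in untreated libraries and at 665, 619.8 and 581 with LPS+IFNg, for a log2 fold change of -0.95 (SE 0.05, limma adjusted p = 1.26e-11). All 3 stimulated libraries lay below the lowest untreated one. Hmgcs1 (chromosome 13, 119690379 to 119708260), the synthase that feeds HMG-CoA into the chain and the holder of the exact element above, had untreated values of 1297 to 1622 with a median of 1404 and stimulated values of 831, 855 and 698, for a log2 fold change of -0.85 (SE 0.07, limma adjusted p = 2.77e-09). Acat2 (chromosome 17, 12942890 to 12960747), the thiolase that joins acetyl-CoA units before it, was at 636 to 739 with a median of 682 in untreated libraries and at 434, 418 and 336 with LPS+IFNg, for a log2 fold change of -0.79 (SE 0.08, limma adjusted p = 5.13e-08). So both of these early enzymes were lower with no overlap between libraries, and replicate 3 was the lowest library for each of them.

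The later enzymes fell as well. Cyp51 (chromosome 5, 4081145 to 4104746), the lanosterol demethylase, was at 768 to 891 with a median of 808 in untreated libraries and at 536, 491 and 483 with LPS+IFNg, for a log2 fold change of -0.70 (SE 0.06, limma adjusted p = 5.05e-09). Msmo1 (chromosome 8, 64718139 to 64733792), which removes methyl groups further along, was at 1088 to 1258 with a median of 1154 in untreated libraries and at 829, 751 and 710.2 with LPS+IFNg, for a log2 fold change of -0.61 (SE 0.06, limma adjusted p = 3.06e-08). Sc5d (chromosome 9, 42251595 to 42264256), a sterol desaturase near the end of the chain, was at 475 to 542 with a median of 494 in untreated libraries and at 363, 317 and 312 with LPS+IFNg, for a log2 fold change of -0.61 (SE 0.07, limma adjusted p = 2.46e-07). For each of these genes every LPS+IFNg library was below every untreated library. Smaller falls were called for the keto reductase Hsd17b7 (-0.58), the cytosolic sterol carrier Stard4 (-0.52), the lanosterol synthase Lss (-0.41), the dehydrogenase Nsdhl (-0.35), the isomerase Idi1 (-0.32) and Dhcr7, the last reductase (-0.23).

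Several steps of the chain did not follow. Mvd (chromosome 8, 122433601 to 122443422), the decarboxylase that ends the mevalonate steps, rose from 554 ± 41.1 to 699 ± 27.8 (SD, n = 6 and 3), for a log2 fold change of 0.34 (SE 0.07, limma adjusted p = 0.000714). The kinases Mvk and Pmvk, the diphosphate synthase Fdps and the squalene synthase Fdft1 did not pass the threshold, at 0.14, 0.10, 0.11 and -0.11. Nor did Tm7sf2, Ebp and Srebf2, at 0.44, -0.09 and -0.09. When each library was rescaled to the same total, Fdft1, Ebp and Srebf2 were called lower, at -0.23, -0.22 and -0.21. Pmvk rests on replicate 3: its LPS+IFNg libraries were at 532, 505 and 1031, and its untreated libraries at 541 to 672 with a median of 624. Without that library Pmvk was lower, at -0.23 (adjusted p = 0.00558), and the uncalled values of Fdps, Fdft1 and Tm7sf2 were 7.22e-05, -0.19 and 0.29. The call of Dhcr7 was lost, at -0.15 (adjusted p = 0.072), Ebp was called lower, at -0.23 (adjusted p = 0.0421), and Scap, at -0.56 with all libraries, was at -0.29 (adjusted p = 0.0187). The sterol counts were then 14 lower and 2 higher of 22, and those of the fatty acid branch, described next, were 8 lower and 1 higher of 9.

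In the fatty acid branch all 9 tested members passed the threshold with LPS+IFNg, 8 lower and 1 higher, with a median log2 fold change of -0.53. The background is that 58.9% of all genes were called. Fasn had untreated values of 9583 to 10329 with a median of 9971, and with LPS+IFNg it was at 3817, 4286 and 2037, for a log2 fold change of -1.62 (SE 0.14, limma adjusted p = 1.12e-08). The lowest stimulated library was again replicate 3, and without it the log2 fold change was -1.30 (adjusted p = 2.84e-17). Acaca (chromosome 11, 84129672 to 84401651), the carboxylase that makes malonyl-CoA for Fasn, was at 737 to 842 with a median of 772 in untreated libraries and at 522, 536 and 549 with LPS+IFNg, for a log2 fold change of -0.54 (SE 0.05, limma adjusted p = 4.14e-08). Acly was at 2743 to 2976 with a median of 2909 in untreated libraries and at 2104, 2098 and 1829 with LPS+IFNg, for a log2 fold change of -0.53 (SE 0.05, limma adjusted p = 3.65e-08). All 3 enzymes from citrate to palmitate were thus lower in every stimulated library.

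Elovl6 (chromosome 3, 129532355 to 129638495) was at 165 to 193 with a median of 178 untreated and at 112, 87.7 and 100.5 with LPS+IFNg, for a log2 fold change of -0.83 (SE 0.11, limma adjusted p = 4.04e-06). Fads1 was at 3131 to 3444 with a median of 3310.3 in untreated libraries and at 2307, 2368 and 1874 with LPS+IFNg, for a log2 fold change of -0.61 (SE 0.06, limma adjusted p = 3.81e-08). The elongases Elovl1 and Elovl5 fell by less, at -0.37 and -0.27. Me1 (chromosome 9, 86581371 to 86695953), the malic enzyme that supplies NADPH, was called at -0.13 (SE 0.05, adjusted p = 0.0357), with overlapping libraries, and lost the call with DESeq2, with only the groups compared and without any 1 of 5 libraries (untreated replicates 1, 2 and 5, LPS+IFNg replicates 1 and 2), with an estimate of -0.07 without LPS+IFNg replicate 2. Acss2 (chromosome 2, 155517948 to 155585724) moved the other way. This acetyl-CoA synthetase had untreated values of 435 to 521 with a median of 451 and LPS+IFNg values of 1254, 1099.5 and 905, for a log2 fold change of 1.20 (SE 0.08, limma adjusted p = 4.92e-10). It was the single fatty acid member that rose, 2.31-fold by the ratio of means, and every stimulated library was above every untreated one.

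**Figure D2:**
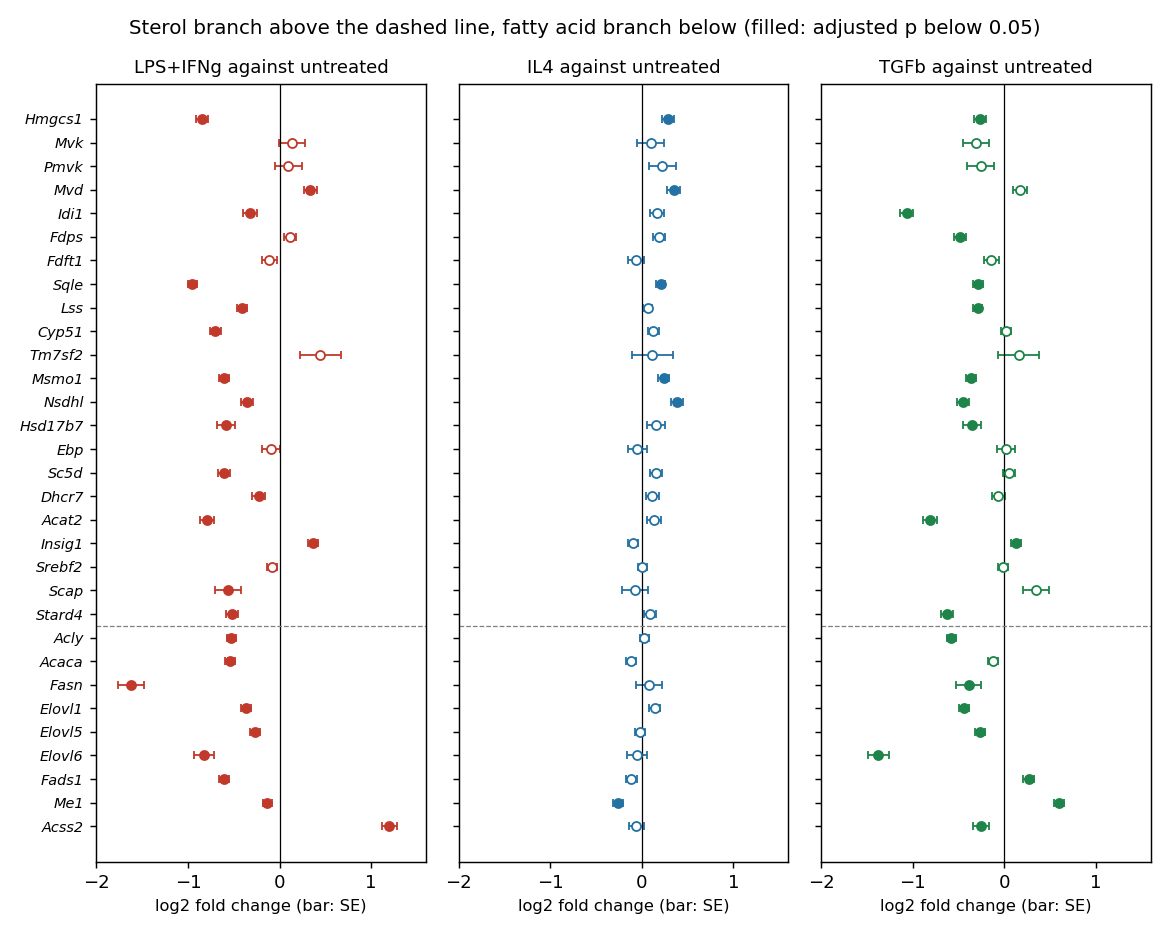
Log2 fold change of each tested member against untreated for the 3 stimuli (points are limma estimates on log2(value + 1), bars SE; filled points have an adjusted p below 0.05). Sterol members stand above the dashed line and fatty acid members below it: most points are left of 0 for LPS+IFNg and TGFb, with Acss2 at 1.20 and Me1 at 0.60 to the right, and IL4 points stay between -0.26 and 0.38.

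With IL4 a few sterol genes rose slightly. Of 22 members, 5 rose, 0 fell and 17 did not pass, with a median log2 fold change of 0.13, while 9.89% of all tested genes were called higher, 7.33% lower and 17.2% in either direction. The share of the branch called, 22.7%, was near that background. The count of sterol genes lower with IL4 was also 0 by edgeR, by DESeq2 and at an unadjusted limma p below 0.05. Nsdhl (chromosome X, 72918557 to 72958514), a late dehydrogenase, was at 594 to 681 with a median of 626 untreated and at 839, 792 and 844 with IL4, for a log2 fold change of 0.38 (SE 0.06, limma adjusted p = 0.000222). Mvd was at 490.3 to 615 with a median of 553 and 706, 656 and 750.4, for a log2 fold change of 0.35 (SE 0.07, limma adjusted p = 0.0028). In both genes every IL4 library was above every untreated one.

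Hmgcs1, at 1789, 1756 and 1683 with IL4, gave a log2 fold change of 0.29 (SE 0.07, limma adjusted p = 0.00501). Msmo1, at 1383, 1344 and 1381, gave a log2 fold change of 0.24 (SE 0.06, limma adjusted p = 0.00599). Sqle, at 1356, 1362 and 1449.6, gave a log2 fold change of 0.21 (SE 0.05, limma adjusted p = 0.00899). These libraries too lay above the untreated ranges given before, by narrow margins. The calls of Msmo1 and Sqle were lost when each library was rescaled to the same total, which left 3 higher and 1 lower, Insig1 at -0.16, and Sqle also lost its call without IL4 replicate 3, at 0.18. Fdps, not called in the main test, was called higher by DESeq2, at 0.20. So it was with a minimum of 50 and with only the groups compared, at 0.19 in each. Without untreated replicate 4 or IL4 replicate 2 it was also called higher, at 0.20 and 0.25. Pmvk was called higher with only the groups compared, at 0.22. Over the branch 18 of 22 estimates were above 0 and 4 below, and the lowest was Insig1 at -0.10.

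The fatty acid branch had 1 of 9 members called with IL4, near the background. Me1 was at 863 to 952 with a median of 894 in untreated libraries and at 783, 759.5 and 704 with IL4, for a log2 fold change of -0.26 (SE 0.05, limma adjusted p = 0.00175), and its IL4 libraries were all below the untreated ones. Fasn, with IL4 values of 10393, 10320.0 and 10828, had a 95% interval of -0.21 to 0.38 around 0.08, and Acly had one of -0.08 to 0.13 around 0.03. The estimates of the remaining members lay between -0.12 for Fads1 and 0.14 for Elovl1.

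TGFb lowered part of both branches. In the sterol branch 10 of 22 members fell, 1 rose and 11 did not pass, with a median of -0.26. Among all genes 23.4% were called lower, 24.1% higher and 47.5% in either direction, so the share of the branch called, 50.0%, was near the background, and 10 of its 11 calls were lower. Idi1 (chromosome 13, 8885501 to 8892451), which interconverts the isoprenoid building blocks, was at 324 to 354 with a median of 348 untreated and at 165, 181 and 148 with TGFb, for a log2 fold change of -1.06 (SE 0.07, limma adjusted p = 1.38e-09). Its mean was 2.09-fold lower and no library overlapped. Acat2 was at 394, 382 and 394, for a log2 fold change of -0.81 (SE 0.08, limma adjusted p = 8.77e-08), below all of its untreated libraries.

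Stard4, which carries cholesterol between membranes, was at 424 to 486 with a median of 459.7 untreated and at 284, 275 and 329 with TGFb, for a log2 fold change of -0.62 (SE 0.07, limma adjusted p = 4.69e-07). Fdps was at 2301 to 2564 with a median of 2457 in untreated libraries and at 1804, 1746 and 1709 with TGFb, for a log2 fold change of -0.48 (SE 0.07, limma adjusted p = 7.27e-06). Nsdhl was at 487, 442 and 460.2 and Msmo1 at 903, 958 and 849, with log2 fold changes of -0.45 (SE 0.06, adjusted p = 8.4e-06) and -0.36 (SE 0.06, adjusted p = 3.39e-05). Each of these genes had all TGFb libraries below all untreated ones. Hsd17b7, Sqle, Lss and Hmgcs1 fell by less, at -0.35, -0.29, -0.29 and -0.26.

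Among the late enzymes, Cyp51 (819 ± 50.2 untreated, 829 ± 7.31 with TGFb), Sc5d and Dhcr7 did not pass, with estimates of 0.02, 0.06 and -0.06. Their 95% intervals were -0.10 to 0.14, -0.08 to 0.20 and -0.21 to 0.08. The estimates of Mvk, Pmvk, Fdft1, Ebp and Tm7sf2, also not called, were -0.31, -0.26, -0.14, 0.02 and 0.16, and that of Mvd was 0.17. Pmvk was called lower under rescaling, at -0.33, and with only the groups compared, at -0.26. Mvk was called lower under rescaling, under quantile normalization and without untreated replicate 2, at -0.38, -0.41 and -0.38. Fdft1 was called lower under rescaling, at -0.22. Mvd was called higher with only the groups compared, at 0.17, and without untreated replicate 1 or TGFb replicate 3, at 0.20 and 0.24. The single rise, of Insig1, was marginal: 0.13 (SE 0.05, adjusted p = 0.0486), with overlapping libraries, and the call was lost under rescaling, at 0.05, and without any 1 of 7 libraries (untreated replicates 1, 2, 3, 4 and 6, TGFb replicates 1 and 3), at 0.09 to 0.14.

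**Figure D3:**
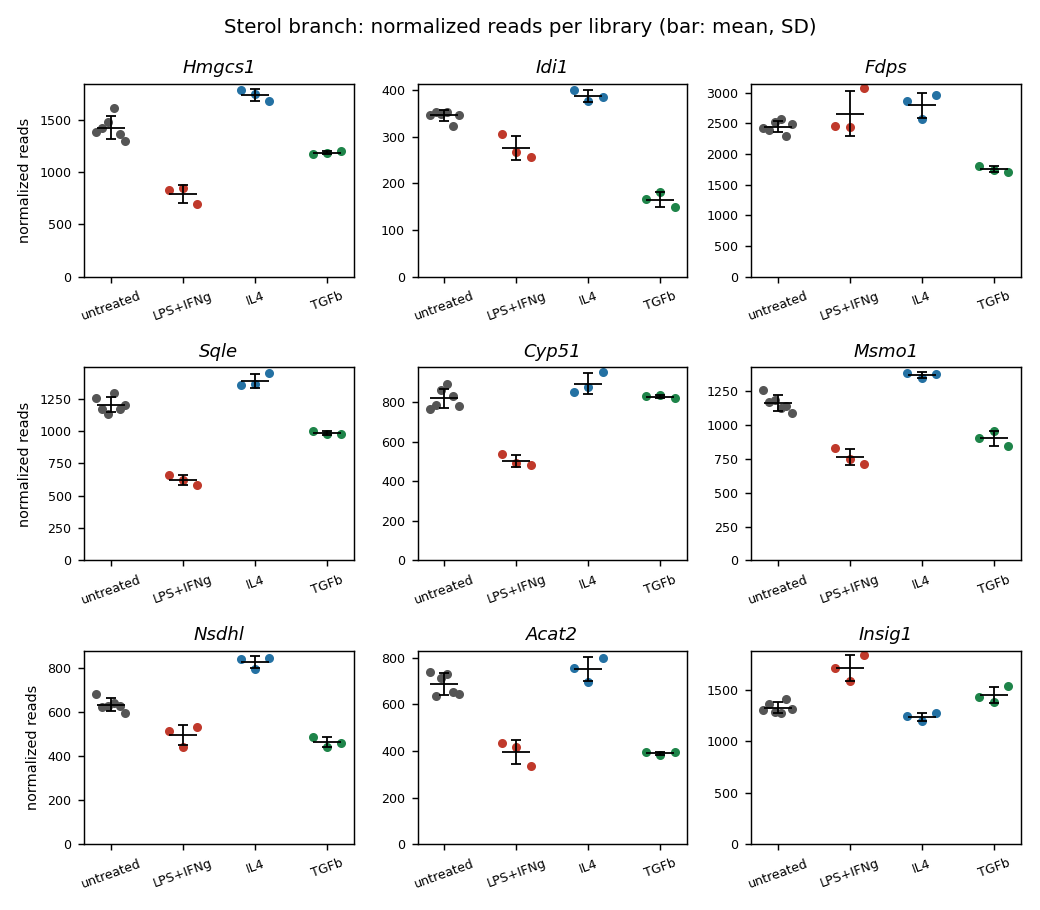
Normalized reads of 9 sterol members in each of the 15 libraries, by group (points are libraries, bars mean and SD, n = 6 untreated and 3 per stimulus; axes start at 0). Sqle, Cyp51 and Hmgcs1 are lowest with LPS+IFNg, Idi1 and Fdps are lowest with TGFb, Acat2 has means of 396 and 390.0 in them, and the IL4 points of Nsdhl, 792 to 844, lie above the untreated ones.

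In the fatty acid branch TGFb called 8 of 9 members, 6 lower and 2 higher, where 47.5% of all genes were called. Elovl6 was the member with the deepest fall: untreated libraries were at 165 to 193 with a median of 178 and TGFb libraries at 64.4, 81.1 and 59.9, for a log2 fold change of -1.37 (SE 0.11, limma adjusted p = 1.11e-08). Acly was at 1919, 1998 and 1893, for a log2 fold change of -0.58 (SE 0.05, limma adjusted p = 2.33e-08). Both genes were separated from their untreated ranges in every library. Elovl1 (chromosome 4, 118428093 to 118432953) was at 987 to 1121 with a median of 1039 in untreated libraries and at 786, 781 and 745 with TGFb, and Elovl5 (chromosome 9, 77917364 to 77984519), an elongase of polyunsaturated chains, was at 931 to 1075 with a median of 1001 and at 818, 892 and 803. Their log2 fold changes were -0.44 (SE 0.06, adjusted p = 4.96e-06) and -0.26 (SE 0.05, adjusted p = 0.000388).

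Me1 rose with TGFb to 1358, 1347 and 1377, for a log2 fold change of 0.60 (SE 0.05, limma adjusted p = 2.73e-08), and Fads1 rose to 3933, 4010.2 and 4017, for a log2 fold change of 0.27 (SE 0.06, limma adjusted p = 0.000838). Every TGFb library of these genes was above the highest untreated one. Fasn, at 7812, 7549 and 7403, and Acss2, at 406, 379.9 and 395, were called lower at -0.39 (SE 0.14, adjusted p = 0.0302) and -0.25 (SE 0.08, adjusted p = 0.0191). The TGFb libraries of both genes were all below the untreated ones, and both calls were kept with only the groups compared. The shared fit also takes its spread from LPS+IFNg, where Fasn was at 3817, 4286 and 2037. Without any 1 TGFb library Fasn lost the call, at -0.41, -0.38 and -0.37, and Acss2 lost it without TGFb replicate 2 or 3, at -0.23 and -0.25. Without the 3 shallowest libraries both lost it, at -0.39 and -0.15 (adjusted p = 0.137 and 0.233). Acaca, between Acly and Fasn in the chain, was at -0.12 and did not pass (adjusted p = 0.0586). It was called lower under rescaling, at -0.20 (adjusted p = 0.00414), with only the groups compared, at -0.12, and without untreated replicate 6, at -0.14.

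**Figure D4:**
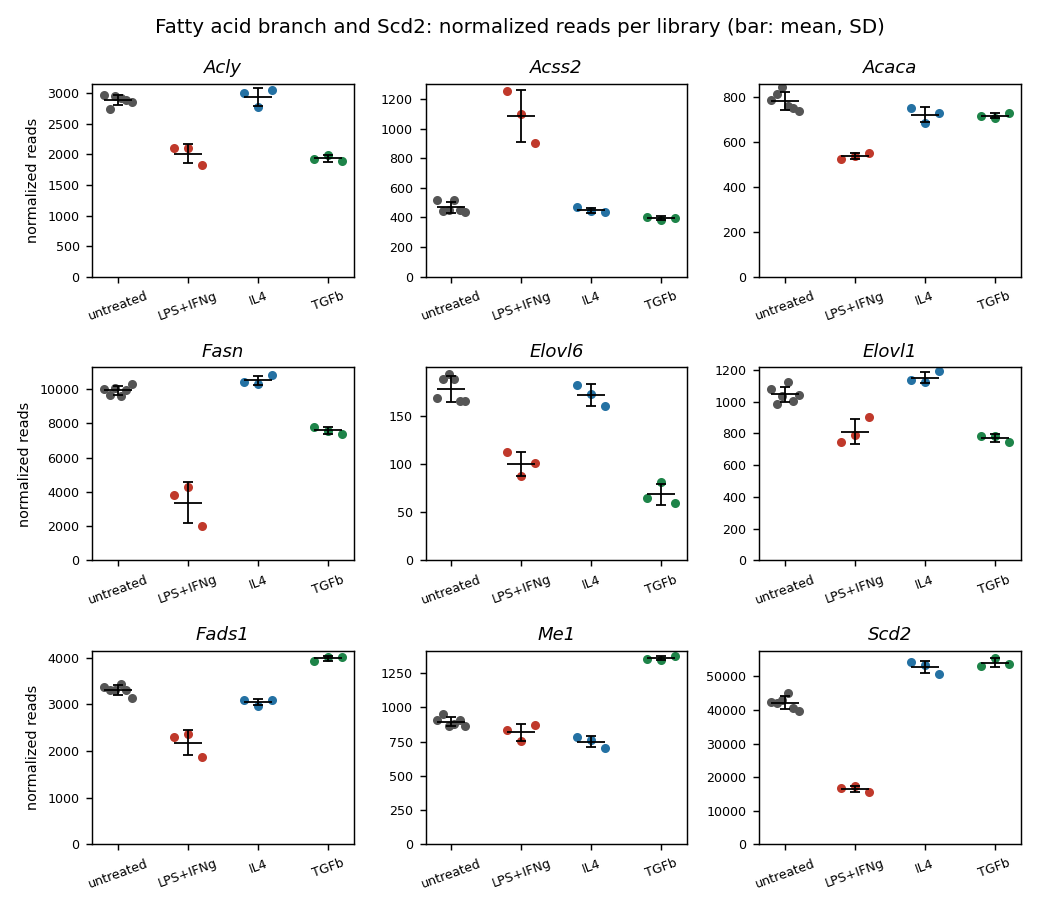
Normalized reads of 8 fatty acid members and of the desaturase gene Scd2 in each of the 15 libraries, by group (points are libraries, bars mean and SD, n = 6 untreated and 3 per stimulus; axes start at 0). LPS+IFNg libraries of Acss2 stand above all others, Me1 is highest with TGFb, Elovl6 is lowest with TGFb, and Fasn falls to a mean of 3379.7 with LPS+IFNg from 9930.0 untreated.

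The 3 comparisons above share the 6 untreated libraries, so their values are set side by side and the differences were tested directly between stimuli. LPS+IFNg against TGFb called 10 of 22 sterol members, 4 higher and 6 lower, and 6 of 9 fatty acid members, 2 higher and 4 lower, where 62.6% of all genes were called. Lower with LPS+IFNg than with TGFb were Scap at -0.91, Cyp51 at -0.72 (SE 0.07, adjusted p = 2.21e-08), Sc5d at -0.67 (SE 0.08, adjusted p = 4.32e-07), Sqle at -0.67, Hmgcs1 at -0.59 and Msmo1 at -0.24. Higher with LPS+IFNg were Idi1 at 0.74 (SE 0.09, adjusted p = 4.46e-07), Fdps at 0.59 (SE 0.08, adjusted p = 1.67e-06), Mvk at 0.44 and Insig1 at 0.24. The call of Mvk was lost under rescaling, at 0.40 (adjusted p = 0.0514), and without LPS+IFNg replicate 2, TGFb replicate 2 or TGFb replicate 3, at 0.41, 0.34 and 0.46. Without LPS+IFNg replicate 3, Ebp was called lower, at -0.25 (adjusted p = 0.0431). Idi1 and Fdps, on the isoprenoid steps, were thus lower with TGFb than with LPS+IFNg. Sqle and Cyp51, which act on squalene and lanosterol, were lower with LPS+IFNg. So were Msmo1 and Sc5d, further along the chain, and Hmgcs1, which acts before the isoprenoid steps. Lss, Hsd17b7, Nsdhl, Dhcr7 and Ebp, later in the chain than Fdps, did not pass in the main test. Dhcr7 was called lower under quantile normalization, at -0.22 (adjusted p = 0.0326), and without LPS+IFNg replicate 2, at -0.24. Pmvk, where LPS+IFNg replicate 3 was apart, was called higher without LPS+IFNg replicate 1 or 2, at 0.50 and 0.54. Whether the calls follow place in the chain was not tested.

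In the fatty acid branch the same test gave Fasn at -1.24 (SE 0.16, adjusted p = 2.46e-06), Fads1 at -0.88 (SE 0.07, adjusted p = 1.43e-09), Me1 at -0.74 (SE 0.06, adjusted p = 4.5e-09) and Acaca at -0.42 (SE 0.06, adjusted p = 6.39e-06), all lower with LPS+IFNg. Acss2 was 2.76-fold higher with LPS+IFNg than with TGFb, for a log2 fold change of 1.45 (SE 0.10, limma adjusted p = 2.1e-10), and Elovl6 was higher at 0.55 (SE 0.13, adjusted p = 0.00118). Acat2, Acly, Stard4, Nsdhl, Elovl1 and Elovl5, called lower with LPS+IFNg and with TGFb, did not pass between these stimuli. Their 95% intervals were -0.17 to 0.20 for Acat2, -0.07 to 0.17 for Acly, -0.06 to 0.27 for Stard4, -0.06 to 0.24 for Nsdhl, -0.07 to 0.21 for Elovl1 and -0.13 to 0.12 for Elovl5, and such an interval does not show equal levels. Without LPS+IFNg replicate 3 Acly was called higher, at 0.12 (adjusted p = 0.0416), and without LPS+IFNg replicate 2 Nsdhl was, at 0.17 (adjusted p = 0.0413). Hsd17b7 and Lss, also called lower with both stimuli, did not pass between them. Quantile normalization called them lower with LPS+IFNg than with TGFb, at -0.29 and -0.19. So did rescaling for Lss, at -0.17, and leaving out LPS+IFNg replicate 1 for Hsd17b7, at -0.32.

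Most members called between IL4 and TGFb were higher with IL4. IL4 against TGFb called 12 of 22 sterol members, 11 higher with IL4 and 1 lower, and 7 of 9 fatty acid members, 5 higher and 2 lower, where 39.7% of all genes were called. The widest sterol gaps were in Idi1 at 1.23 (SE 0.09, adjusted p = 1.66e-09), Acat2 at 0.94 (SE 0.09, adjusted p = 1.08e-07) and Nsdhl at 0.83 (SE 0.07, adjusted p = 2.81e-08). Elovl6 was 2.50-fold higher with IL4, and Me1 lower at -0.86 (SE 0.06, adjusted p = 1.96e-09). LPS+IFNg against IL4 called 14 of 22 sterol members, 13 lower with LPS+IFNg and Insig1 higher at 0.47 (SE 0.06, adjusted p = 2.22e-06), with Sqle at -1.16 (SE 0.06, adjusted p = 7.58e-12) and Hmgcs1 at -1.14 (SE 0.08, adjusted p = 3.63e-10). The 13 include Scap at -0.49, whose call was lost with only the groups compared, without LPS+IFNg replicate 3, at -0.22 (adjusted p = 0.114), and without IL4 replicate 2 or 3, at -0.46 in each. Without LPS+IFNg replicate 3, Pmvk and Fdps were called lower, at -0.46 (adjusted p = 2.11e-05) and -0.19 (adjusted p = 0.00581). The comparison called 8 of 9 fatty acid members, 7 lower and Acss2 higher. Of all genes 57.7% were called in that comparison, 28.8% in each direction.

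The regulators did not move alike. Insig1 (chromosome 5, 28071363 to 28078662), which retains SREBPs, rose with LPS+IFNg from 1324 ± 52.1 to 1712 ± 128, for a log2 fold change of 0.37 (SE 0.05, limma adjusted p = 6.54e-06), while most enzymes fell. Srebf2 (chromosome 15, 82147181 to 82205379), the SREBP gene of the sterol branch, was at 2836 ± 128 untreated, 2671 ± 92.5 with LPS+IFNg, 2855 ± 259.7 with IL4 and 2816 ± 35.0 with TGFb. It passed in no comparison with untreated, and its 95% intervals were -0.20 to 0.03, -0.10 to 0.12 and -0.12 to 0.10. Rescaling or quantile normalization called it lower with LPS+IFNg, at -0.21 in each. Scap (chromosome 9, 110333288 to 110384950) was at 253, 256 and 145 with LPS+IFNg and 255 to 345 with a median of 336 untreated, so libraries overlapped, and it was called lower at -0.56 (SE 0.14, adjusted p = 0.00248). It was at 383, 395 and 417 with TGFb, above all untreated libraries, with an adjusted p of 0.0553 for 0.35. It was called higher by edgeR at 0.32 (adjusted p = 0.0478), by DESeq2 at 0.32 (adjusted p = 0.0386) and by limma with only the groups compared at 0.35 (adjusted p = 0.00288).

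Srebf1, the SREBP gene tied to fatty acid synthesis and no member of the list, changed in both directions. Its untreated values were 2199.5 to 2809.8 with a median of 2559.9. It fell to 1279, 1518 and 1089.5 with LPS+IFNg, for a log2 fold change of -0.98 (SE 0.09, limma adjusted p = 2.08e-08), and rose to 6677, 6725 and 6614 with TGFb, for a log2 fold change of 1.39 (SE 0.09, limma adjusted p = 4.71e-10). With TGFb it was thus 2.62-fold higher, while the tested fatty acid members went both ways. Fasn, Acly, Elovl6, Elovl1, Elovl5 and Acss2 were called lower, the calls of Fasn and Acss2 not in every setting. Me1 and Fads1 were called higher. Insig2, related to Insig1, was at 558, 489 and 1366 with LPS+IFNg, of which replicate 3 alone was far above the untreated 384 to 436 with a median of 420.5, and its log2 fold change was 0.79 with that library and 0.32 without it. Over the whole list of SREBP processing and sterol sensing, 4 of 16 genes rose and 6 fell with LPS+IFNg, 0 passed with IL4 by limma, edgeR or DESeq2 (1 at an unadjusted limma p below 0.05), and 5 rose and 2 fell with TGFb. The shares called with LPS+IFNg and TGFb, 62.5% and 43.8%, were near those of all genes, 58.9% and 47.5%. For LPS+IFNg the list includes the nuclear receptor partner Rxra at -0.78, the oxysterol receptor gene Nr1h2 at 0.65 and the ubiquitin-conjugating gene Ube2g2 at -0.35. For TGFb it includes the SREBP protease gene Mbtps1 at 0.26 and Rxra at 0.17.

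**Figure D5:**
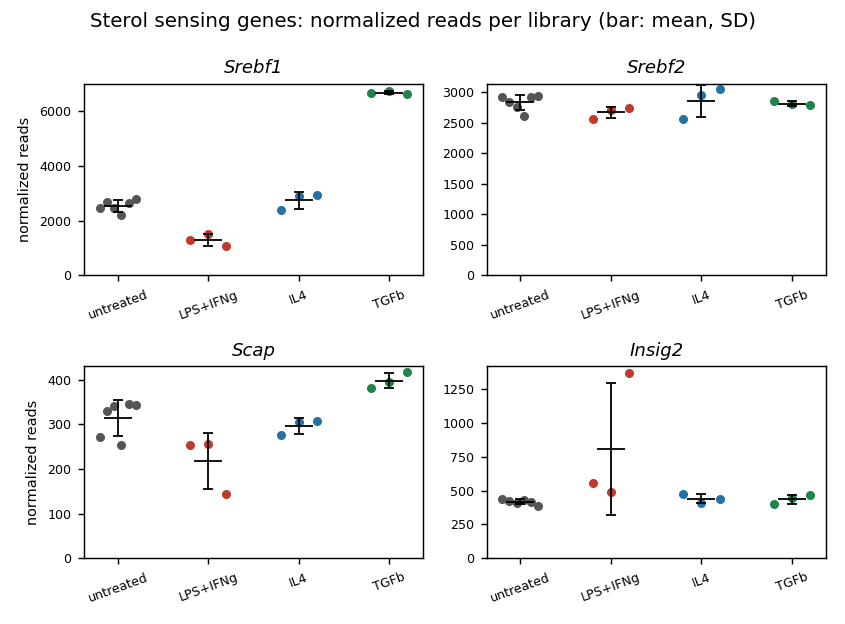
Normalized reads of 4 sterol sensing genes in each of the 15 libraries, by group (points are libraries, bars mean and SD, n = 6 untreated and 3 per stimulus; axes start at 0). Srebf1 is at 6672 with TGFb and 1296 with LPS+IFNg, Srebf2 is near 2836 in all groups, and replicate 3 of LPS+IFNg is apart in Insig2 and Scap.

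Among the 15 other sterol and isoprenoid genes, 5 rose and 5 fell with LPS+IFNg, 0 passed with IL4 by limma, edgeR or DESeq2 (1 at an unadjusted limma p below 0.05), and 1 rose and 5 fell with TGFb. The shares called were 66.7%, 0% and 40.0% with LPS+IFNg, IL4 and TGFb, beside 58.9%, 17.2% and 47.5% of all genes. With LPS+IFNg the reductase gene Srd5a3, needed for dolichol, rose by 0.86, and the dolichol kinase gene Dolk and the prenyltransferase subunit gene Fnta were at -0.78 and -0.51. With TGFb, Pdss1, which makes the tail of coenzyme Q, was at -0.79, Fnta at -0.27 and Rabggta at -0.33.

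Genes of sterol uptake and transport were counted next. Of the 14 genes on that list 4 rose and 8 fell with LPS+IFNg, 4 rose and 1 fell with IL4, and 4 rose and 3 fell with TGFb. In the same order the list had 85.7%, 35.7% and 50.0% called, against 58.9%, 17.2% and 47.5% of all genes. Npc2, a lysosomal cholesterol carrier, rose with each stimulus, by 1.03 with LPS+IFNg, 0.37 with IL4 and 0.51 with TGFb. TGFb raised the ubiquitin ligase gene Mylip by 1.13 and the scavenging receptor gene Lrp1 by 0.90, and Npc1 by 0.40. LPS+IFNg raised Stard5 by 1.07 and lowered Lrp1 (-0.52) and Osbp (-0.33). IL4 raised Soat1, which esterifies cholesterol for storage, by 0.35, Npc1 by 0.26 and the ester hydrolase gene Nceh1 by 0.27.

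Of 24 other fatty acid genes, 5 rose and 8 fell with LPS+IFNg, 5 rose and 2 fell with IL4, and 6 rose and 6 fell with TGFb. These were 54.2%, 29.2% and 50.0% of the list, where 58.9%, 17.2% and 47.5% of all genes were called. Scd2 fell with LPS+IFNg to 16717, 17207 and 15524 from 39728 to 45162 with a median of 42303, for a log2 fold change of -1.35 (SE 0.06, limma adjusted p = 1.97e-13). It was at 54340.2, 53264 and 50787 with IL4 and 53016, 55477 and 53769.7 with TGFb, with log2 fold changes of 0.33 (SE 0.06, adjusted p = 0.000417) and 0.36 (SE 0.06, adjusted p = 3.13e-05), but quantile normalization turned the TGFb value to -0.38 and took the IL4 call away. Acsl1 and Acsl5, which activate fatty acids, rose with LPS+IFNg by 0.99 and 0.87, and Acsl3 was lower at -0.48. With IL4, Acsl1 rose by 0.53 and the dehydratase gene Ptplad2 by 0.77, and Pgd, an NADPH source, was at -0.33. With TGFb, G6pdx, another NADPH source, and Me2, the mitochondrial malic enzyme, were at -0.71 and -0.69, while Acsl3 and Acsl1 rose by 0.50 and 0.38.

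The genes that burn fatty acids were counted beside those that make them. Of 19 oxidation genes 1 rose and 13 fell with LPS+IFNg, 10 rose and 0 fell with IL4, and 11 rose and 2 fell with TGFb, with medians of -0.42, 0.20 and 0.27. Among all genes 29.5% and 29.4% were called higher and lower with LPS+IFNg, 9.89% and 7.33% with IL4 and 24.1% and 23.4% with TGFb. With LPS+IFNg the mitochondrial thiolase genes Acat1 and Acaa2 were at -1.44 and -1.04 and the dehydrogenase gene Acadm at -0.97. IL4 raised Acadm by 0.54, Acat1 by 0.36, Hadha by 0.34 and Hadhb by 0.33. TGFb raised Cpt1a, the gatekeeper of mitochondrial import, by 0.80, Acadvl by 0.65 and Eci2 by 0.47. With TGFb the medians of the oxidation list and the fatty acid branch thus had opposite signs, 0.27 and -0.26, and with LPS+IFNg both were below 0. For IL4 the count of lower oxidation genes was 0 by edgeR, by DESeq2 and at an unadjusted limma p below 0.05 as well. Without replicate 3 of LPS+IFNg, 2 oxidation genes were higher and 13 lower, 4 and 4 of the isoprenoid list, 4 and 7 of the sterol sensing list, 4 and 8 of the uptake list and 6 and 8 of the other fatty acid genes.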

How the data were processed

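The submitters' processing notes name DESeq2, Partek 6.6, R 3.0.2, TopHat2 2.0.3 and the build mm10, and libraries were made with a TruSeq RNA kit, per the labels' protocols. The sources used here do not give the annotation, the counting rule or the use of strand, and overlapping antisense genes cannot be told apart. Values were deposited as a normalized signal, in which the authors' counts are divided by 1 factor per library and values below 1 are set to 1, as inferred from the values. All 15 value columns were used. Values above 1 and below 200 reads came out as whole reads within 0.01 for 100% of values. Another check, which starts from the floor of 1 and not from a read, accepted whole reads in 6 of the columns only. Values at the floor were taken as no reads, though it allows up to 2 in untreated replicate 6. It allows 1 in LPS+IFNg replicates 1 and 2, IL4 replicates 1 and 3 and TGFb replicates 1 and 3. The count tests (edgeR 4.0.16, DESeq2 1.42.0), which used the recovered reads of all 15, are alternatives with those limits. They called 6702 and 6419 genes for LPS+IFNg, 2067 and 1963 for IL4 and 5281 and 5075 for TGFb.

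The main test was limma 3.58.1 (R 4.3.3) with its trend on log2(value + 1), 1 fit over 15 libraries and 6 contrasts, on 11138 of 11201 genes that reached 10 in 3 or more libraries, with Benjamini-Hochberg adjustment over all of them. The scale understates changes of low genes. Replicate numbers follow accession order. Members and lists were chosen with earlier results of these data known. All members are named, those called with full values up to 6 per branch and contrast by moderated statistic, and up to 4 called genes per other list and contrast. Some genes of those other lists are counted in them but not reported here by name. Positions are GENCODE M21 (GRCm38). Promoters come from RefSeq (GRCm38.p6), and for 25 of 32 the bases after the start open or lie in a GENCODE transcript of the gene.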

Additional observations from a re-analysis of the deposited data

Results flagged for a closer look

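Among the untreated libraries, each of the 32 members was looked at for a single library far from the other 5, by the ratio of its gap to the whole range (Dixon's ratio at the 95% level). Chance alone flags about 1 in 20 groups, and 3 of 32 were found. Idi1 was at 323.5 in replicate 5, where the others were at 346 to 354. Tm7sf2 was at 39.5 in replicate 6, where the others were at 28.0 to 30.9. Ebp was at 322.2 in replicate 4, where the others were at 243 to 259. The groups of 3 libraries were too small for this look.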

How the results depend on the processing

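The counts of sterol members called stayed within 1.5 times of the value given under every alternative run: another pseudocount (10), no filter, a minimum of 50, rescaling, quantile normalization, edgeR, DESeq2, only the groups compared, and without the 3 shallowest libraries. Fatty acid members called with IL4 were 2 under rescaling and 3 with only the groups compared, in place of 1. With no filter, Scd1 entered the test and was called lower with LPS+IFNg, which made 9 lower and 1 higher of 10. Its LPS+IFNg values were at or near the floor of 1. Leaving out single libraries gave 1130 to 1868 genes called with IL4 over the whole table, in place of 1917, with the lowest without IL4 replicate 2. Rescaling moved the median of all genes with LPS+IFNg by -0.12 and the share of calls that were higher from 50.0% to 35.5%, and with IL4 from 57.4% to 34.0% and with TGFb from 50.8% to 37.8%. With rescaled values the sterol counts for LPS+IFNg, IL4 and TGFb were 2 higher and 16 lower, 3 and 1, and 0 and 13. Quantile normalization gave 38.8% higher for LPS+IFNg and 47.4% for IL4. Scd2 changed sign under quantile normalization, at -0.38 with TGFb and 0.58 for IL4 against TGFb, and Pmvk with LPS+IFNg ranged from -0.23 to 0.28 when single libraries were left out. Of 1902 values of called genes under alternatives, 1848 kept direction and call, 53 lost the call and 1 changed sign. Of 1359 values of uncalled genes 64 gained a call, 2 became calls in the other direction and 73 changed sign in all, and those that stayed uncalled were not counted as reversals, a choice made after seeing that number. Between stimuli, the calls of Fasn and Pmvk for IL4 against TGFb were lost without any 1 of those 6 libraries, at 0.45 to 0.49 and 0.45 to 0.50. Both calls were kept with only the groups compared. Libraries did not overlap: Fasn was at 10320 to 10828 with IL4 and 7403 to 7812 with TGFb. Pmvk was at 694 to 736 and 499 to 528. The shared fit takes its spread from all groups, and LPS+IFNg replicate 3 was apart in both genes, at 2037 and 1031. No paired analysis was possible because the labels give groups no shared replicate numbers. Scd1 was too low to test by its normalized level. In the library with the most reads, untreated replicate 6, it was at 4.30, where 1 read was worth 0.39.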
